A study of Anableps anableps with 4 samples.

Results

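All genes of the four-eyed fish Anableps anableps whose symbol named a collagen chain (fibrillar, network and other collagens) were taken, apart from the cartilage-associated types IX and X. This gave 27 of the 22934 genes in the files, and the 7 collagen IX and X genes were left out. Genes that shared a symbol were kept apart by their identifier. The second type I chain and type III were not among the genes taken and were not analysed here. The symbols are those of the deposited annotation. The rule by which reads shared by similar genes were assigned is not given in the sources used here.

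Collagens are the main structural proteins of animal connective tissue, and each is a triple helix of chains from 1 gene or from different genes. Fibrillar collagens (types I, II, III, V, XI, XXIV and XXVII) assemble into the fibrils of tendon, bone, sclera, cornea and cartilage. Network collagens form sheets such as the basement membrane (type IV) and the membrane under the corneal endothelium (type VIII), and type VI forms beaded filaments that link fibrils to cells. In the vertebrate eye the cornea and sclera are collagen-rich connective tissue, many fishes have a ring of cartilage in the sclera, and type II is the collagen of cartilage and of the vitreous.

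The counts are of unique molecular identifiers (UMIs) from fresh-frozen sections on Visium slides, an assay in which barcoded spots capture the RNA of whatever cells lie over them. Per the labels, the samples were 2 adult eyes (adult eye 1 and adult eye 2), 1 head of stage 4 (the stage 4 section), and 1 capture area with both a stage 3 head and a stage 5 eye, which were not separated here and are called the stage 3/5 section. The labels give no genotype, treatment or animal for any section, so whether the adult eyes came from separate animals is not known, and all 4 sections carry the same batch number. The adult sections hold eyes and the developmental sections hold a head, or a head and an eye, so stage and tissue cannot be told apart.

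Spots with at least 100 UMIs were used, 1293 in adult eye 1, 1488 in adult eye 2, 1135 in the stage 4 section and 779 in the stage 3/5 section, with 4318525, 5161091, 4269120 and 1513171 UMIs. Spots were clustered within each section without the collagen genes, and each cluster was put in a class by its leading marker genes. The stroma class was led by keratocan (KERA), fibromodulin (fmoda) and decorin (DCN) in the adult eyes. The cartilage class was led by CLEC3A in the adult eyes and by matrilin 1 (MATN1) in the stage 4 section, with aggrecan (acanb) among its leading genes in all 3. A class is a group of spots with such markers, not a cell type, since a spot can hold several cells. The stage 3/5 section gave no cartilage cluster at the resolution used. Between 95 and 1015 barcodes were shared by pairs of sections, which in this assay mark positions on the slide and not cells.

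Most collagen genes were scarcely captured, and a pair of genes made up most of the collagen signal. Over the 4 sections 13003 UMIs came from collagen genes. COL6A2 (ENSABLG00000022003), the α2 chain of the beaded filament type VI, held 6405 of them (49.3%). COL2A1 (ENSABLG00000000928), the only chain of cartilage type II, held 4915 (37.8%). These are shares of counted molecules and not levels per transcript length, and a collagen gene without a symbol would not be among them.

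The other members had fewer UMIs. COL6A6 (type VI, α6 chain) had 783 UMIs, col1a1b and col1a1a (copies of the α1 chain of type I, the collagen of bone, tendon and cornea) 371 and 103, and col27a1b (type XXVII, a fibrillar collagen of developing cartilage) 130. A further 5 genes had 26 to 87 UMIs: COL11A2 87, col6a1 65, COL11A1 50, COL6A3 (ENSABLG00000008319) 42 and COL26A1 26. In 11 genes there were 1 to 6 UMIs, 26 in all, among them the only gene named for basement membrane type IV (COL4A1, 1 UMI), the type VIII chain COL8A2 (2 UMIs) and the anchoring fibril gene Col7a1 (2 UMIs). No UMI came from 5 genes, which were COL17A1, col5a3a, col28a2a, col28a2b and a second COL6A2 gene (ENSABLG00000022792), where 3 UMIs were taken as the limit that a count of 0 allows. Scaled to counts per 1000000 UMIs (CPM), 3 UMIs are 0.695 in adult eye 1, 0.581 in adult eye 2, 0.703 in the stage 4 section and 1.98 in the stage 3/5 section. Network collagens were too scarce at this depth to describe by class.

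Where a symbol stood on more than 1 gene, nearly all UMIs fell on 1 of the copies. COL6A3 had 42 UMIs on one gene and 6 on the other (ENSABLG00000008318), and all 5 adult UMIs of the second gene lay in stroma spots. The gene col1a1a (ENSABLG00000009105) had 103 UMIs and its namesake (ENSABLG00000020839) 3, all in the stage 4 section. The gene col27a1b (ENSABLG00000015208) had 130 and its namesake (ENSABLG00000020728) 1.

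Over whole sections, lens spots included, collagen genes took a smaller share of the UMIs in the adult eyes than in the developmental sections. The share of UMIs was 0.0344% in adult eye 1 (exact 95% binomial interval 0.0327 to 0.0362%) and 0.0396% in adult eye 2 (0.0379 to 0.0414%), against 0.1765% in the stage 4 section (0.173 to 0.181%) and 0.128% in the stage 3/5 section (0.123 to 0.134%). The intervals cover counting error only. Both adult sections lay below both developmental sections, and the stage 4 section was the highest. Lens crystallins took 33.2% and 33.5% of the adult UMIs, against 4.02% and 4.37% in the stage 4 section and the stage 3/5 section. Among UMIs other than crystallins the collagen shares were 0.0514% and 0.0595% in the adult eyes. The developmental sections had 0.184% and 0.134%, in the same order. This leaves the other RNA of lens spots in the total. Lens spots held most of the adult UMIs, about 2.83e+06 and 3.56e+06 in the genes tested below alone. The adult lens clusters had 3.84 to 26.6 CPM of collagen. The collagen share outside lens spots was not computed. A section is a mixture, so fewer cells of a type and less RNA per cell cannot be told apart.

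**Figure D1:**
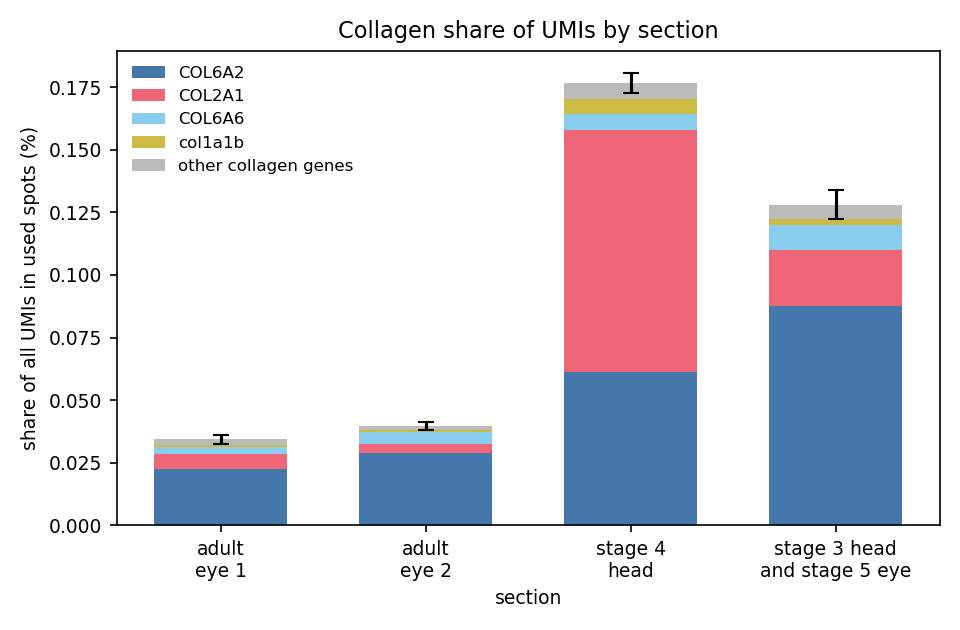
Share of all UMIs in used spots (%) that came from collagen genes, stacked by gene, in each of the 4 sections, with exact 95% binomial intervals of the total. The adult eyes reached 0.0344 and 0.0396%, the stage 4 section 0.1765% and the stage 3/5 section 0.128%, and COL2A1 was the largest block only in the stage 4 section.

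The stage 4 section also differed in which gene made up the signal. COL2A1 gave 17.8% and 9.25% of the collagen UMIs in adult eyes 1 and 2, against 54.7% in the stage 4 section and 17.5% in the stage 3/5 section. COL6A2 gave 65.1% and 73.2% in the adult eyes, against 34.7% and 68.4%. Fibrillar genes together held 24.4% and 13.2% of collagen UMIs in the adult eyes, 60.9% in the stage 4 section and 22.8% in the stage 3/5 section. The 7 type VI genes held 74.9%, 86.6%, 39.0% and 76.7% in the same order. The stage 4 section stood apart by this measure, and the stage 3/5 section lay close to or within the range of the adult eyes.

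The summed level of the 20 cartilage marker genes, like the COL2A1 share, was highest in the stage 4 section and lowest in adult eye 2. It was 119 CPM in adult eye 1 (11 of the 20 genes with a UMI) and 84.1 CPM in adult eye 2 (12 of 20), against 1292 CPM in the stage 4 section (16 of 20) and 366 CPM in the stage 3/5 section (15 of 20). Adult eye 1 and the stage 3/5 section differed in the marker level and hardly in the COL2A1 share, but these measures have different totals. The marker level is per UMI of all used spots, and lens spots held most of the adult UMIs. Adult lens clusters had 0 to 4.96 CPM of these markers. The COL2A1 share is of collagen UMIs alone, so the 2 measures cannot be compared directly. The part of the cartilage marker genes in the collagen share was not tested.

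Most of the fitted collagen genes were higher in stroma spots than in the mean of the other classes, though none with 10 or more UMIs was highest there in the stage 3/5 section. Of the 27 genes, 9 passed the filter on low counts and could be fitted, and 8 of these 9 were called higher in stroma spots by edgeR's quasi-likelihood test on counts summed per section and class (31 sums, with section as a block, Benjamini-Hochberg adjusted over all genes fitted). The background was 9.26% of 5366 genes, and 10.1% of the genes that took no part in the clustering. The median log2 fold change of the 9 genes was 3.65, against 0.18 over all genes. The filter passes genes by their level in some sums, so the 9 are not the whole set. COL6A3 (ENSABLG00000008319) had 57.7 and 56.6 CPM in adult stroma spots and at most 22.9 CPM in any other sum. COL11A2 had 75.0 and 93.0 CPM there and at most 36.7 CPM in any other sum. The gene col1a1a had 51.9 and 52.6 CPM there, and only epithelium spots of the stage 3/5 section were higher (55.1 CPM). The gene col6a1 had 75.0 CPM in stroma spots of adult eye 1 and 49.4 CPM in stage 4 cartilage spots. It had at most 28.3 CPM in any other sum. These genes thus entered wholly or partly by the stroma spots in which they were then called, so 8 of 9 partly reflects that selection. Sums of 1 section share a library, and only the adult eyes are 2 sections of 1 group, so the p-values measure the spread between these sections and classes.

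COL6A2 showed the pattern with the most counts. In stroma spots it had 479 UMIs (2763 CPM, exact 95% Poisson interval 2521 to 3021) in adult eye 1 and 921 UMIs (3726 CPM, 3489 to 3974) in adult eye 2. The stage 4 section had 1371 UMIs there (1958 CPM, 1855 to 2064) and the stage 3/5 section 201 UMIs (2473 CPM, 2143 to 2839). Stroma spots were its highest class in both adult eyes and the stage 4 section, while in the stage 3/5 section epithelium spots were higher. The log2 fold change in stroma spots was 3.56 ± 0.42 (SE; adjusted p = 2.2e-08 by edgeR).

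Stroma spots were 8.74% and 8.40% of the used spots in the adult eyes and held 49.5% and 61.5% of the COL6A2 UMIs. In the stage 4 section they were 23.4% of spots with 52.4% of the UMIs, and in the stage 3/5 section 8.22% of spots with 15.1%. In each section stroma spots held a larger share of the COL6A2 UMIs than of the spots, and spots differ in depth.

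The remaining type VI genes followed with fewer counts. COL6A6 had 363 CPM in stroma spots of adult eye 1 and 684 CPM in those of adult eye 2, against 208 CPM in the stage 4 section and 283 CPM in the stage 3/5 section (63, 169, 146 and 23 UMIs), and its log2 fold change was 3.65 ± 0.37 (SE; adjusted p = 9.0e-10 by edgeR). The gene col6a1, the α1 chain that pairs with α2 in the type VI molecule, had 75.0 and 28.3 CPM in adult stroma spots, against 15.7 and 12.3 CPM (13, 7, 11 and 1 UMIs), with a log2 fold change of 4.34 ± 0.73 (SE; adjusted p = 5.3e-05 by edgeR). Stroma spots were its highest class in the adult eyes alone, since cartilage spots had 49.4 CPM in the stage 4 section and epithelium spots 22.9 CPM in the stage 3/5 section, where it had 7 UMIs in all. Its stroma call was lost with the DESeq2 Wald test (adjusted p = 0.0855) and, by edgeR, against the summed counts of the other classes (adjusted p = 0.0655), the lowest over 12 alternatives being 1.1e-10. COL6A3, the large α3 chain, lay mostly in stroma spots in the adult eyes, with 10 of 13 and 14 of 15 UMIs there. In the developmental sections 1 of 7 and 0 of 7 of its UMIs lay in stroma spots. Its log2 fold change over the sections was 3.78 ± 0.75 (SE; adjusted p = 4.4e-04 by edgeR), and the DESeq2 Wald test did not call it (adjusted p = 0.50, the highest over 13 alternatives, the lowest being 3.6e-10).

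Type I genes were also highest in stroma spots, except in the stage 3/5 section. The gene col1a1b had 225 and 56.6 CPM in stroma spots of adult eyes 1 and 2, against 180 CPM in the stage 4 section and 49.2 CPM in the stage 3/5 section (39, 14, 126 and 4 UMIs). The Poisson intervals of adult eye 1 and the stage 4 section overlapped, as did those of the other 2 sections. The log2 fold change was 3.47 ± 0.45 (SE; adjusted p = 2.4e-07 by edgeR). Its copy col1a1a had 51.9 and 52.6 CPM in adult stroma spots, against 41.4 and 24.6 CPM (9, 13, 29 and 2 UMIs), intervals that all overlapped, and a log2 fold change of 3.85 ± 0.62 (SE; adjusted p = 1.3e-05 by edgeR).

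COL2A1 was higher in stroma spots by 1.62 ± 0.45 on the log2 scale (SE; adjusted p = 0.011 by edgeR). This call was lost under 8 of 17 alternatives, and over all 17 the adjusted p ranged between 1.3e-10 and 0.32. It was 1.61 without adult eye 1 (adjusted p = 0.095 by edgeR) and 1.23 without adult eye 2 (adjusted p = 0.32 by edgeR). Stroma spots had 213 CPM in adult eye 1 and, for adult eye 2, 178 CPM, against 1595 CPM in the stage 4 section and 209 CPM in the stage 3/5 section. Only the stage 4 section was high. The gene col27a1b was the 1 fitted member not called in stroma spots (log2 fold change 1.40 ± 0.64, adjusted p = 0.23 by edgeR), and it had no UMI in stroma spots of adult eye 2.

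**Figure D2:**
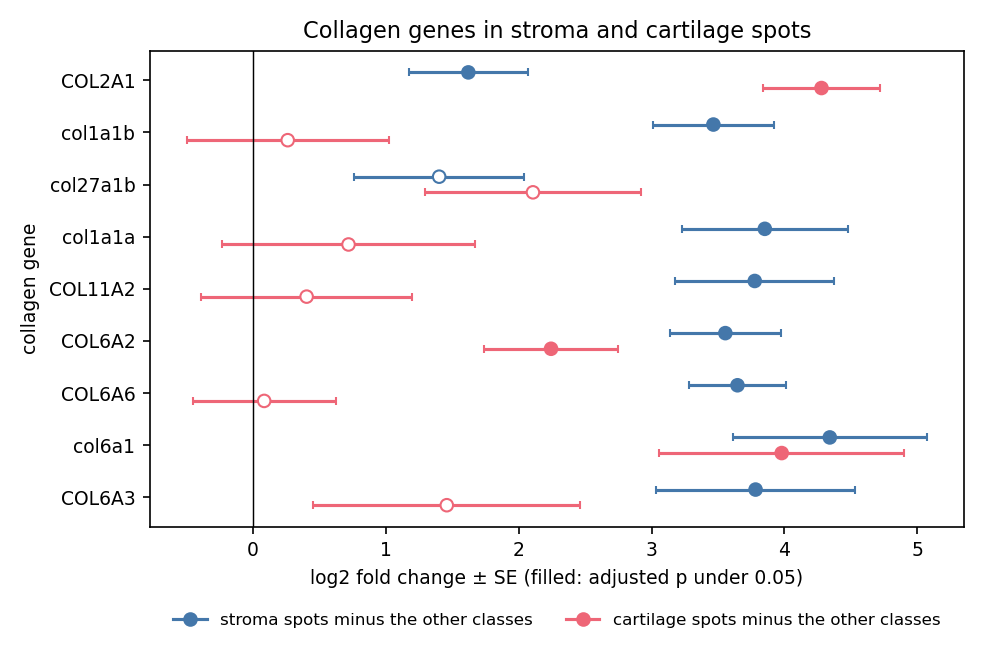
Log2 fold change (± SE, edgeR) of the 9 fitted collagen genes in stroma spots (blue) and in cartilage spots (red), each minus the mean of the other classes; filled points have an adjusted p under 0.05. In stroma spots 8 points are filled and 3 in cartilage spots, where COL2A1 (4.28) and col6a1 (3.98) lie farthest to the right.

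COL2A1 was highest in cartilage spots. Of the 9 fitted genes 3 were higher there than in the mean of the other classes, against a background of 3.24% of 5159 genes and 2.74% of those left out of the clustering. The median log2 fold change of the 9 was 1.46, against 0.0034 over all genes. COL2A1 had 1171 CPM in cartilage spots of adult eye 1 (100 UMIs, 953 to 1424), 689 CPM in those of adult eye 2 (66 UMIs, 533 to 877), and 8575 CPM in the stage 4 section (1562 UMIs, 8155 to 9011). Its highest class was cartilage in all 3 sections that had such spots, and the stage 4 value stood far above the adult ones. The log2 fold change was 4.28 ± 0.44 (SE; adjusted p = 2.3e-09 by edgeR).

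The type VI genes col6a1 and COL6A2 were the other calls in cartilage spots. The gene col6a1 had a log2 fold change of 3.98 ± 0.92 (SE; adjusted p = 0.0076 by edgeR) on 2, 1 and 9 UMIs in adult eye 1, adult eye 2 and the stage 4 section. It passed the filter by stroma spots of adult eye 1 and these stage 4 cartilage spots, so its call partly reflects that selection. The call was lost under 5 of 12 alternatives, among them the DESeq2 Wald test and the adult sections alone. COL6A2 had 1288 and 1546 CPM in adult cartilage spots, against 834 CPM in the stage 4 section, and a log2 fold change of 2.24 ± 0.50 (SE; adjusted p = 0.0038 by edgeR). Without adult eye 1 the change of col6a1 was 3.94 (adjusted p = 0.067 by edgeR). That of COL6A2 was 1.65 without adult eye 1 (adjusted p = 0.34) and 2.13 without adult eye 2 (adjusted p = 0.080), and with coarser clusters it was -0.064 (adjusted p = 1). The stroma markers were present in these spots too, at 3701 and 6579 CPM in the adult eyes and 4260 CPM in the stage 4 section, and their part in the type VI values was not tested.

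The type XI genes, whose chains join type II in cartilage fibrils, lay in different classes. COL11A1 had 4 of 7 UMIs in cartilage spots of adult eye 1, 2 of 2 in those of adult eye 2 and 26 of 35 in those of the stage 4 section (46.8, 20.9 and 143 CPM). COL11A2 had 0 of 19, 1 of 32 and 1 of 20 UMIs in the same cartilage spots, and 13, 23 and 9 in stroma spots (75.0, 93.0 and 12.9 CPM). COL11A2 was higher in stroma spots (log2 fold change 3.78 ± 0.60, adjusted p = 9.1e-06 by edgeR), the spots by which it had passed the filter. COL11A1 did not pass the filter on low counts. With no filter it was called higher in cartilage spots (log2 fold change 5.92 ± 0.69, adjusted p = 6.9e-15 by edgeR). Stroma minus cartilage was then -3.42 ± 0.77 (adjusted p = 0.0016 by edgeR). Against the summed counts of the other classes it was also called in cartilage spots (5.58 ± 0.74, adjusted p = 6.4e-05 by edgeR). The counts of COL11A1 are a description of few molecules, and no fit compared the 2 genes.

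Set directly against each other, stroma and cartilage spots differed in 1 gene each way. COL6A6 was higher in stroma than in cartilage spots (log2 fold change 3.16 ± 0.71, adjusted p = 0.0081 by edgeR), with a background of 1.85%. It had 63, 169 and 146 UMIs in stroma spots of adult eye 1, adult eye 2 and the stage 4 section, against 5, 7 and 3 in cartilage spots. COL2A1 was lower in stroma than in cartilage spots (-2.36 ± 0.69, adjusted p = 0.048 by edgeR), with a background of 1.13%. Neither was called without adult eye 1 (COL6A6 3.37, adjusted p = 0.14, and COL2A1 -2.40, adjusted p = 0.37, by edgeR) or without adult eye 2 (3.06, adjusted p = 0.15, and -2.66, adjusted p = 0.16). COL2A1 was not called without the stage 3/5 section either (-2.06, adjusted p = 0.067 by edgeR). The gene col1a1b was just outside the threshold (2.85 ± 0.86, adjusted p = 0.060 by edgeR).

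COL2A1 was 47.6% of the COL2A1 and COL6A2 UMIs in cartilage spots of adult eye 1 (exact 95% interval 40.7 to 54.6%), 30.8% in adult eye 2 (24.7 to 37.5%) and 91.1% in the stage 4 section (89.7 to 92.4%). In stroma spots the shares were 7.17%, 4.56% and 44.9% in the same sections, and 7.80% in the stage 3/5 section. In each of the 3 sections with both classes the share was higher in cartilage spots, and the intervals did not overlap.

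**Figure D3:**
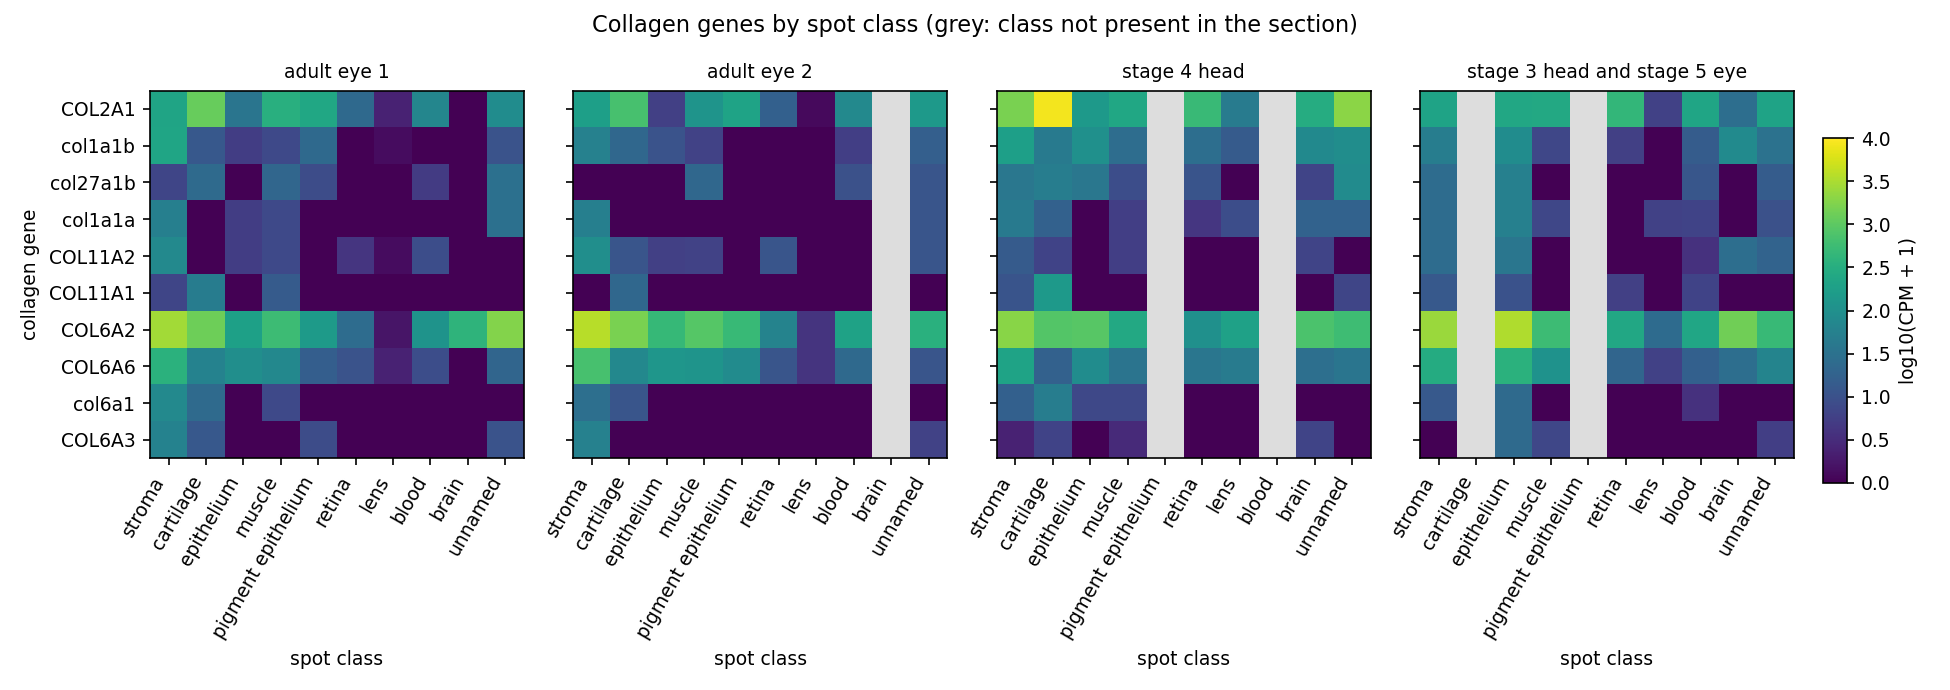
Level of the 10 collagen genes with 42 or more UMIs (rows, fibrillar genes above, type VI genes below) in each class of spots (columns) of the 4 sections, as log10(CPM + 1); grey marks a class that the section lacked. In the 2 adult eyes and the stage 4 section COL2A1 is brightest in cartilage spots and COL6A2 and COL6A6 in stroma spots, while in the stage 3/5 section these type VI genes are brightest in epithelium spots.

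Within the stage 4 section the stroma class held 2 clusters with different collagens. One, of 198 spots led by thrombospondin 4 (thbs4a), lumican (LUM) and periostin (postnb), had 1823 CPM of COL2A1, 1038 CPM of COL6A2 and 34.8 CPM of COL6A6. The other, of 68 spots led by fmoda, had 555 CPM of COL2A1, 6145 CPM of COL6A2 and 999 CPM of COL6A6. COL2A1 was thus high in the first and the type VI genes in the second. The cartilage markers summed to 2490 CPM in the first cluster and 618 CPM in the second, and the stroma markers to 6814 and 20036 CPM. The part of neighbouring cartilage in the COL2A1 values was not tested.

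**Figure D4:**
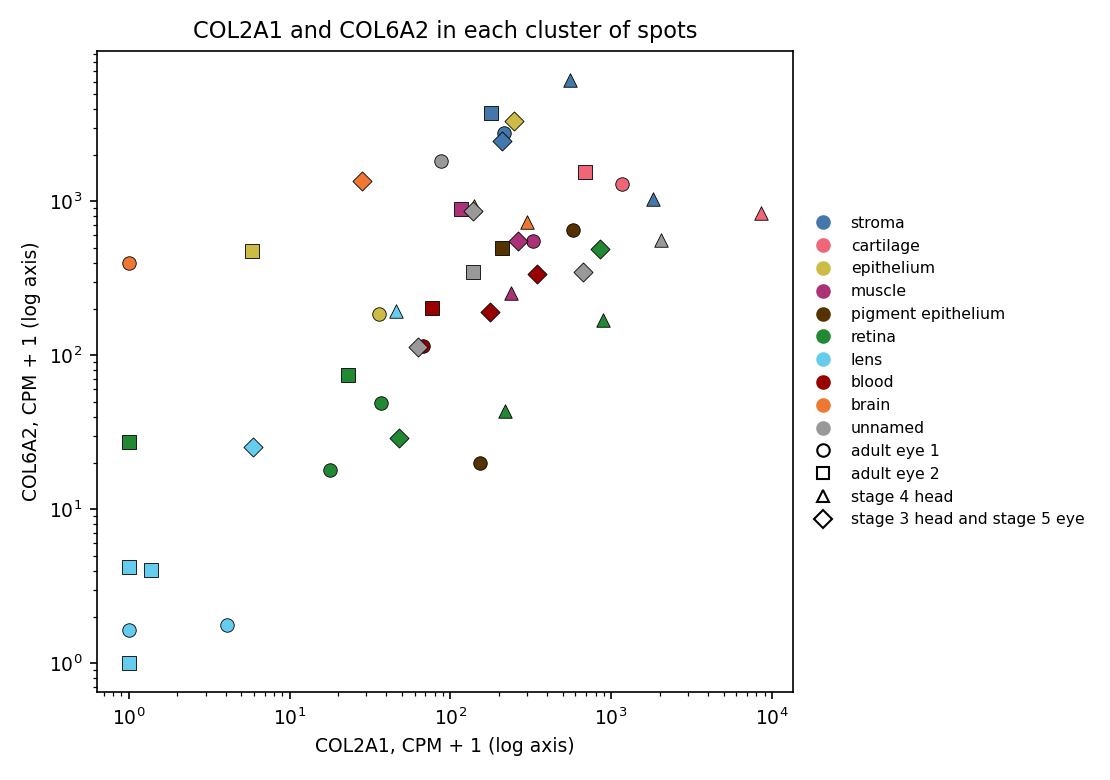
COL2A1 against COL6A2 (CPM + 1, log axes) in every cluster of spots, coloured by class and with a symbol for each section. The stage 4 cartilage cluster is farthest right (8575 CPM of COL2A1), the fmoda-led stage 4 stroma cluster highest (6145 CPM of COL6A2), and the adult lens clusters lie at the lower left.

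Epithelium spots differed between sections. Of the 9 fitted genes 1 was higher in epithelium spots than in the mean of the other classes, against a background of 11.4% of 5155 genes, and the median log2 fold change was 1.46 for the 9 and 0.022 for all genes. That gene was COL6A6 (log2 fold change 2.15 ± 0.41, adjusted p = 1.4e-04 by edgeR), and COL6A2 was just outside the threshold (1.39 ± 0.49, adjusted p = 0.0504 by edgeR). Without the stage 4 section 4 genes were called, and 2 without adult eye 1, for which no background is given here. COL6A2 had 184 and 477 CPM in adult epithelium spots, against 925 CPM in the stage 4 section and 3345 CPM in the stage 3/5 section. In the last section 6 collagen genes with 10 or more UMIs (COL6A2, COL6A6, col1a1a, col1a1b, col27a1b and COL11A2) were higher in epithelium spots than in any other named class. The stroma markers summed there to 7350 CPM, as in the stroma spots of that section (7123 CPM), against 2226 and 3097 CPM in adult epithelium spots and 3307 CPM in those of the stage 4 section. Their part in the epithelial values was not tested.

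Muscle spots gave no call among the 9 fitted genes, where the background was 16.6% of 5277 genes and 4 of the 9 had an unadjusted p under 0.05. The median log2 fold change was 1.04 for the 9 and 0.25 for all genes. COL6A2 had 549 and 889 CPM in muscle spots of the adult eyes, against 255 CPM in the stage 4 section and 548 CPM in the stage 3/5 section. The DESeq2 Wald test called 0 as well, with 0 at an unadjusted p under 0.05. With adult sections alone 3 genes were called, and 2 without the stage 4 section or without the stage 3/5 section. The share of all genes called in these fits is not given here, so these counts have no background.

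Collagen genes were low in lens spots. The lens has a collagen-rich capsule around fibre cells packed with crystallins. Of the 6 genes whose contrast could be estimated 4 were lower in lens spots, against a background of 19.6% of 5095 genes. The other fitted genes were left out for a large standard error. The median log2 fold change was -2.39 for the 6 and -0.11 for all genes. COL2A1 (-3.81 ± 0.69, adjusted p = 3.2e-05 by edgeR) and COL6A2 (-2.71 ± 0.66, adjusted p = 0.0012 by edgeR) were called with col27a1b (-4.03 ± 1.37) and col1a1b (-2.07 ± 0.76). The call of col1a1b was lost without the stage 4 section (-2.84), the stage 3/5 section (-1.66) or adult eye 2 (-1.97). The count was 2 without the stage 4 section, without the stage 3/5 section and without adult eye 1. All collagen genes together had 5.25 and 6.41 CPM in adult lens spots, against 304 CPM in the stage 4 section and 39.1 CPM in the stage 3/5 section. The lens values of the stage 4 section stood apart, and its lens spots held 803 CPM of the stroma markers, against 13.99 and 11.7 CPM in the adult eyes and 142 CPM in the stage 3/5 section. The part of the stroma in these values was not tested.

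COL6A2, COL6A6 and col1a1b were low in retina spots. Of the 4 genes whose contrast could be estimated 3 were lower in retina spots, against a background of 8.52% of 5342 genes, and the median log2 fold change was -2.45 for the 4 and 0.31 for all genes. The other fitted genes were left out for a large standard error, and some had UMIs in these spots. Among them COL11A2 in retina spots over the rest was -0.52 and 0.82 on the log2 scale in adult eyes 1 and 2, and below the rest in both developmental sections. The 3 called lower were COL6A2 (-3.35 ± 0.66, adjusted p = 7.0e-05 by edgeR), COL6A6 (-2.23 ± 0.55, adjusted p = 0.0013 by edgeR) and col1a1b (-2.67 ± 0.70, adjusted p = 0.0022 by edgeR). COL2A1 was not called (-1.30 ± 0.55, adjusted p = 0.062 by edgeR). It had 21.9 CPM in retina spots of adult eye 1 (7 UMIs) and 15.6 CPM in those of adult eye 2 (6 UMIs), against 519 CPM in the stage 4 section (156 UMIs) and 443 CPM in the stage 3/5 section (93 UMIs). The adult values lay below the developmental ones.

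In each developmental section most of this COL2A1 lay in 1 of the 2 retina clusters. In the stage 4 section the cluster led by photoreceptor and pigment epithelium genes (gngt2b, rlbp1b, RBP3, rpe65a) had 885 CPM (120 UMIs), and the other retina cluster 218 CPM (36 UMIs). In the stage 3/5 section the cluster led by rlbp1b, rpe65a and RBP3 had 855 CPM (88 UMIs), and the other 46.7 CPM (5 UMIs). The 16 pigment epithelium markers summed to 6353 and 7028 CPM in these 2 clusters, against 569 and 729 CPM in the other retina clusters. The cartilage markers summed to 819 and 991 CPM in them, against 417 and 168 CPM. The part of either list in the COL2A1 values was not tested.

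The adult eyes had separate pigment epithelium clusters. Those with rpe65a and tyrp1b among their leading genes had 576 CPM of COL2A1 (16 UMIs) in adult eye 1 and 208 CPM (5 UMIs) in adult eye 2, with the cartilage markers at 1187 and 1081 CPM. These are small counts, and the adult retina clusters held between 0 and 6 UMIs of COL2A1 each.

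The 32 pairs of a gene and a section with 10 or more UMIs were ranked over the named classes, leaving out spots without a class. They were highest in stroma spots 18 times, in cartilage spots 7 times, in epithelium spots 6 times and in retina spots 1 time. All 6 epithelial cases came from the stage 3/5 section, which had no cartilage class. COL2A1 was the 1 retinal case, in that section. Among named classes col27a1b was highest in cartilage spots of adult eye 1 and the stage 4 section (23.4 and 49.4 CPM, 2 and 9 UMIs). The cluster without a class was higher in both, at 28.8 CPM (3 UMIs) in adult eye 1 and 83.2 CPM in the stage 4 section. In the latter 29 of its 90 UMIs lay in that cluster of 92 spots. COL26A1 had 1 of its 26 UMIs in stroma spots and none in cartilage spots.

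With lens spots in the totals, most collagen genes with enough UMIs were lower in the adult eyes than in the developmental sections. The order in stroma spots depended on how the spots were classed. With 2 adult and 2 developmental sections of different kinds there is no test, and a gene was counted when both adult sections differed from both developmental ones by at least 2-fold. Over all used spots, lens spots included, 9 genes had the 50 UMIs required. Of these 6 were lower in the adult eyes, against a background of 5.31% of 8746 genes. None was higher, against a background of 2.68%. Lens spots held most of the adult UMIs and few of the collagen ones, and their part in these counts was not tested. The median log2 ratio of adult over developmental sections was -2.07 for the 9 genes and -0.32 for all genes.

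The named genes showed this as follows. COL2A1 had 61.1 and 36.6 CPM in the adult eyes, against 966 CPM in the stage 4 section and 225 CPM in the stage 3/5 section, so that the nearest adult and developmental sections still differed 3.68-fold. COL6A2 had 224 and 290 CPM, against 612 and 877 CPM, 2.11-fold apart at the nearest. Lens spots, which held most of the adult UMIs, are in these totals. Each adult lens cluster had 0 to 8 UMIs of COL6A2. Levels outside lens spots were not computed. The gene col27a1b had 2.55 and 1.55 CPM, against 21.1 and 13.9 CPM (11, 8, 90 and 21 UMIs), and col1a1b had 10.9 and 4.46 CPM, against 61.1 and 26.4 CPM (47, 23, 261 and 40 UMIs).

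The gene col1a1a had 3.24 and 2.91 CPM in the adult eyes, against 12.6 and 13.2 CPM (14, 15, 54 and 20 UMIs). COL11A1 was the sixth gene counted, on 7 and 2 UMIs in the adult eyes against 35 and 6. COL6A6 was not counted, with 26.2 and 48.1 CPM in the adult eyes against 64.7 and 96.5 CPM, and neither was COL11A2, whose 19 and 32 UMIs in the adult eyes stood against 20 and 16 UMIs. Without the crystallins in the total 3 of the 9 genes were counted as lower (COL2A1, col27a1b and col1a1a), against a background of 2.71% of 8720 genes. None was higher, against a background of 5.72%. The median log2 ratio was then -1.55 for the 9 genes and 0.20 for all genes.

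In stroma spots alone no collagen gene was counted either way, and without adult eye 1 COL6A6 was counted as higher. Of the 5 genes with enough UMIs there 0 were lower in the adult eyes, against a background of 3.46% of 1359 genes, and 0 were higher, against 16.9%. The median log2 ratio of adult over developmental sections was 0.42 for the 5 genes and 0.26 for all genes. Both adult values of COL6A2 and of COL6A6 lay above both developmental ones in these spots, with COL6A2 in adult eye 1 only 1.12-fold above the stage 3/5 section. This order rested on the class rule. With classes from each spot's own marker UMIs the log2 ratio of COL6A2 was -0.75 in place of 0.55, with both adult values below both developmental ones, and that of COL6A6 was -0.21 in place of 1.09. The median of the 5 genes was then -0.87, against 0.29 for all genes. The fmoda-led stage 4 stroma cluster described above, at 6145 CPM of COL6A2 and 999 CPM of COL6A6, also lay above both adult eyes. COL2A1 in adult stroma spots lay close to the stage 3/5 section, and only the stage 4 section was higher.

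**Figure D5:**
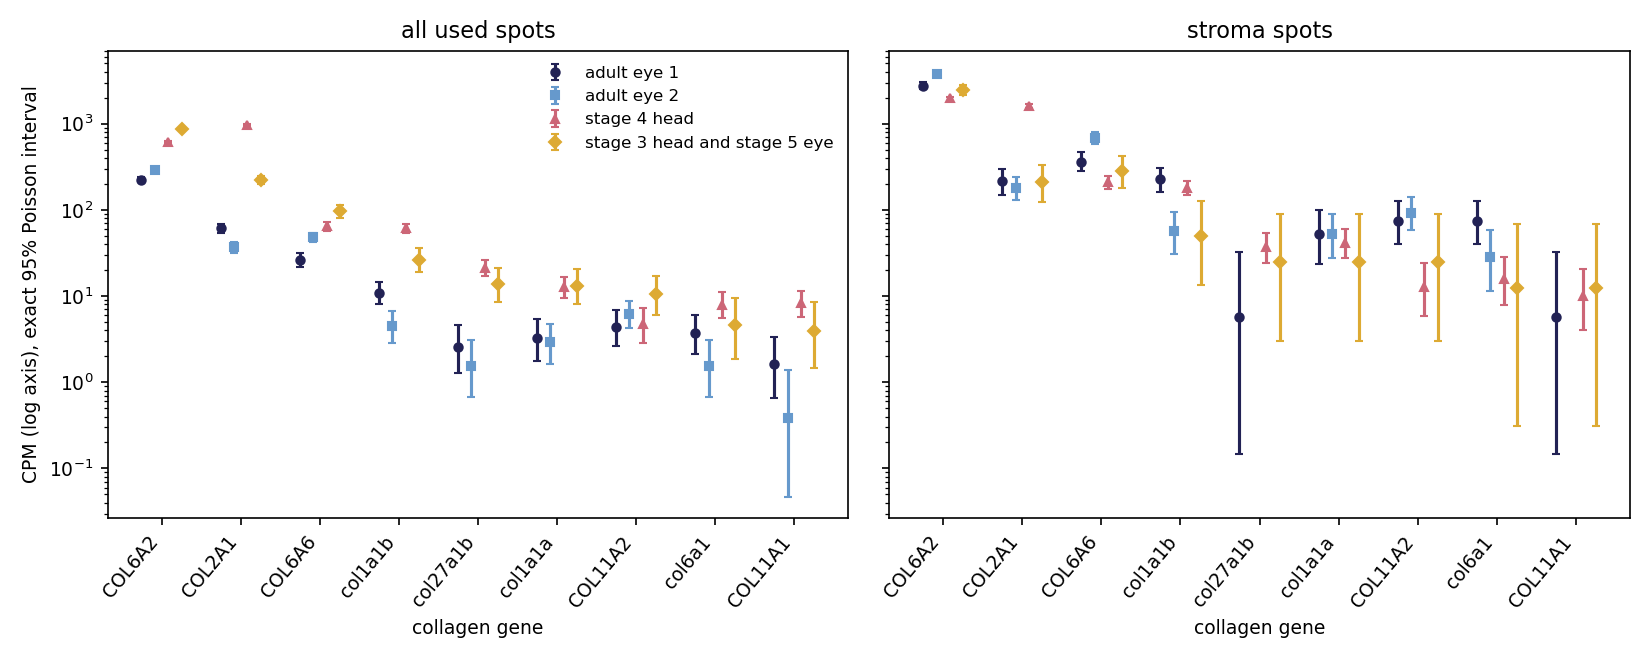
Level (CPM, log axis, exact 95% Poisson intervals for counting error) of the 9 collagen genes with at least 50 UMIs in the 4 sections, over all used spots (left) and in stroma spots (right); genes with no UMI in a section are not drawn there. On the left the totals include the lens spots, which held most of the adult UMIs. There the adult eyes lie below the developmental sections for COL6A2 (224 and 290 against 612 and 877 CPM). On the right they lie above them (2763 and 3726 against 1958 and 2473 CPM), an order that turned round with classes from each spot's own marker UMIs.

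In 4 of the 8 genes with at least 20 UMIs over both adult eyes, the ratio of the eyes had an interval for counting error that left out 1. The share of all genes whose interval would leave out 1 was not computed, so this count has no background. The 4 were the genes with the most adult UMIs, and such intervals narrow as counts grow. Over all genes the median log2 ratio was 0.084. COL2A1 in adult eye 1 was 1.67 times adult eye 2 (interval 1.38 to 2.02), and col1a1b 2.44 times (1.45 to 4.21). COL6A2 was lower at 0.772 times (0.711 to 0.838), and COL6A6 at 0.545 times (0.432 to 0.683). In stroma spots the ratio for COL2A1 was 1.20 (0.753 to 1.90), for col1a1b 3.97 (2.11 to 7.92), for COL6A2 0.742 (0.663 to 0.829) and for COL6A6 0.531 (0.391 to 0.714). COL6A2 and COL6A6 were thus lower in adult eye 1 on both scales, and COL2A1 differed over the whole section without a detectable difference in its stroma spots. The type VI genes col6a1 (2.39 times over all used spots, 0.965 to 6.45) and COL6A3 (1.04 times, 0.454 to 2.33) were not lower, and their intervals held 1. With 1 section of each eye this spread includes the plane of section and is no test of the animals.

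Genes that make and bind collagen were followed as a list of 54 genes, of which 48 had a UMI and 24 could be fitted. In stroma spots 11 of the 24 were higher and none lower (7 higher without adult eye 1 and 6 without adult eye 2), with the background of 9.26% given above and a median log2 fold change of 1.35. The 5 with the smallest adjusted p were the cross-linking enzymes loxl2a (4.04 ± 0.37, adjusted p = 1.0e-10 by edgeR) and loxa (2.68 ± 0.37, adjusted p = 8.4e-07), the prolyl hydroxylase relative P3H3 (2.93 ± 0.48, adjusted p = 1.8e-05), the collagen-binding matrix protein SPARC (2.01 ± 0.34, adjusted p = 2.6e-05) and the cross-linking enzyme LOXL1 (1.95 ± 0.40, adjusted p = 4.9e-04).

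In cartilage spots 12 of the 24 were higher and none lower (6 higher without adult eye 1, 5 without adult eye 2 and 7 without the stage 4 section), with the background of 3.24% and a median log2 fold change of 1.45. The leading 5 were the cross-linking enzyme loxl3b (2.98 ± 0.41, adjusted p = 1.0e-06 by edgeR), the lysyl hydroxylase PLOD2 (3.19 ± 0.46, adjusted p = 3.6e-06), the collagen uptake receptor MRC2 (2.85 ± 0.43, adjusted p = 6.6e-06), the matrix glycoprotein tenascin C, TNC (4.603 ± 0.71, adjusted p = 1.9e-05), and the collagenase mmp14a (2.31 ± 0.51, adjusted p = 0.0034). Between stroma and cartilage spots themselves, loxl2a was higher in stroma (2.86 ± 0.67, adjusted p = 0.012 by edgeR) and PLOD2 lower (-2.58 ± 0.60, adjusted p = 0.010 by edgeR).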

How the data were processed

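For each of the 4 Visium sections the authors deposited a matrix of raw UMI counts, made with Space Ranger 3.1.3 as the matrix header states. These counts are not normalized. The genome build and annotation are not given in the sources used here. From these counts, spots with at least 100 UMIs were kept and clustered within each section (scanpy 1.11.5, Leiden resolution 1, 2000 variable genes, 30 components, 15 neighbours), leaving out all collagen genes and the collagen processing genes, 88 genes in all. No doublet caller was run, since spots are not cells. A cluster took the class with the most of its markers among its top 10 genes by fold, with at least 3 markers 2-fold up. This naming rule was set after the leading genes of the clusters, and before the collagen values by class, had been seen.

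Counts were summed per section and class (31 sums of at least 10 spots, residual degrees of freedom 19) and fitted with edgeR 4.0.16 (TMM, filter on low counts, quasi-likelihood test, section as a block), with Benjamini-Hochberg adjustment over the 5645 genes fitted. A contrast with a standard error above 10 on the log2 scale was left out as having no usable estimate. A gene left out in this way could still have UMIs in the class, as col27a1b did in stage 4 retina spots. CPM are counts per 1000000 UMIs of the spots summed. Intervals are exact 95% Poisson or Clopper-Pearson ones and cover counting error only. The fit was tested on simulated data. DESeq2 1.42.0 was an alternative.

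The members and gene lists were chosen with earlier results of these data known. Genes with at least 100 UMIs were named with values per section, as was any called in a class, and at most 5 processing genes per contrast by adjusted p. The stage 3/5 section is the capture area with a stage 3 head and a stage 5 eye. COL11A1, COL26A1 and the scarce genes were named after their values were seen. No sequences are printed, since no genome was used here.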

Additional observations from a re-analysis of the deposited data

Results flagged for a closer look

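In muscle spots COL6A2, set against all other used spots, went opposite ways in the adult and the developmental sections. Its level in muscle spots over that in all other used spots was 1.37 and 1.73 on the log2 scale in adult eyes 1 and 2, against -1.88 in the stage 4 section and -0.74 in the stage 3/5 section, a difference of the means of 2.86. The other spots include the lens spots, which held most of the adult UMIs. Adult lens clusters had 0 to 3.23 CPM of COL6A2, against 193 CPM in the stage 4 section and 24.4 CPM in the stage 3/5 section. Muscle spots lay below stroma and cartilage spots in both adult eyes. The difference and the part of lens spots in it were not tested.

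Spots of clusters without a class also held collagen. Collagen stood at 2008 and 547 CPM in adult eyes 1 and 2, against 2854 CPM in the stage 4 section and 851 CPM in the stage 3/5 section, all above the level that 3 counts would give. In the stage 4 section this was 1 cluster of 92 spots led by S100A11, ccn2a and CCN1, with 715 UMIs of COL2A1 (2051 CPM) and 29 of col27a1b. In adult eye 1 it was 1 cluster of 39 spots led by s100w, ACTA2 and anxa1a, with 190 UMIs of COL6A2 (1825 CPM) and 9 of COL2A1.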

How the results depend on the processing

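Of 538 recomputed values, 334 concerned single genes in a class of spots or between the adult eyes. Of these 287 kept their direction and side of the threshold or, for ratios of the adult eyes, stayed inside the interval. Another 46 kept only their direction, and 1 reversed (COL6A2 in cartilage spots at Leiden resolution 0.5, -0.064). The other 204 values were counts and shares, of which 140 stayed near the reported value and 64 moved. Of the uncalled log2 ratios of adult over developmental stroma spots, with each spot's own markers COL6A2 stood at -0.75 (0.55 as reported), COL6A6 at -0.21 (1.09), col1a1a at -0.87 (0.42) and col1a1b at -1.35 (0.30), and col1a1b at -1.02 without adult eye 1. The cause of the changes was not tested, beyond what each alternative changes by construction. At resolution 0.5 the stage 4 section had no stroma class and the adult eyes no cartilage class. The stroma calls of COL6A2, COL6A6, COL11A2, col1a1a and col1a1b and the cartilage call of COL2A1 held under every alternative in which the gene was fitted. COL11A2 and col1a1a were fitted in 14 alternatives, the others in 17. COL11A2 passed the filter by its stroma spots and col1a1a partly by them. Being fitted and being called there are thus not independent for these genes. Without crystallins the collagen shares were 0.0514% and 0.0595% in adult eyes 1 and 2. They were 0.184% in the stage 4 section and 0.134% in the stage 3/5 section. These totals still held the other RNA of lens spots.

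The count of 8 genes higher in stroma spots was 5 of 9 with the DESeq2 Wald test, 4 of 4 fitted at resolution 2 and with spots of at least 500 UMIs, 5 of 6 with classes by the highest mean marker fold and from each spot's own markers, and 5 of 8 against the summed other classes. The count of 3 in cartilage spots was 1 at resolution 0.5, and 2 to 4 with 1 section left out. The count of 1 in epithelium spots was 3 with no filter, 2 with no section block, without crystallins and with both other class rules, and 0 at resolution 0.5 and against the summed other classes; leaving out 1 section gave 1 to 4. The count of 0 in muscle spots was 1 with no filter, 3 in the adult sections alone, 2 at resolution 2, 1 with each spot's own markers and 2 with at least 500 UMIs; leaving out 1 section gave 0 to 2.

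The count of 4 lower in lens spots was 0 with no section block, 1 in the adult sections alone and 1 at resolution 0.5; leaving out 1 section gave 2 to 3. The count of 3 lower in retina spots was 1 by library size only, 1 in the adult sections alone and 6 with each spot's own markers. The 1 gene higher in stroma than in cartilage spots became 2 with no filter, at resolution 2 and by the highest mean marker fold, 3 with each spot's own markers, 5 in the adult sections alone, and 0 by library size only, with no section block and at resolution 0.5; leaving out 1 section gave 0 to 2. The 1 gene lower became 0 by library size only, with no section block and at resolution 0.5, and 0 to 1 with 1 section left out.

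The 11 processing genes higher in stroma spots were 6 to 13 with 1 section left out. The 12 in cartilage spots were 7 with no filter, 2 at resolution 0.5 and 7 against the summed other classes, and 5 to 12 with 1 section left out. The 6 genes lower in the adult eyes were 1 at 4-fold, 3 without crystallins and 3 with ratios centred on the median gene. In stroma spots 0 to 1 gene was higher with 1 adult eye left out. Adult and developmental sections could not be paired, because only the adult eyes share a group and carry replicate numbers. Spot classes were compared within sections, with section as a block. The summed other classes and the highest mean marker fold were chosen after seeing the data. Counts of a few UMIs limit the scarce genes. For the class contrasts, the counts under the alternatives are given without the share over all genes in the same alternative.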

Other observations

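Among clusters of the stage 3/5 section that had no class, 33 spots led by APOA2, apoa1b and RBP4 held 665 CPM of COL2A1 (27 UMIs), and 70 spots led by crabp2b, thbs4a and hapln1a held 862 CPM of COL6A2 (88 UMIs) with 137 CPM of COL2A1 (14 UMIs).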
